A study of Mus musculus with 2 samples.

Results

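Interferon-induced genes were followed across the cell classes of the mouse lung after allergen challenge. The set was given as 38 gene symbols. By symbol, 36 of them were found among the 32285 genes of the count tables. Mx1 and Mx2 were not matched and were not analysed here. The 36 genes fall into a type I list of 22 genes typical of interferon alpha and beta, a GBP/IRG list of 8 genes typical of interferon gamma, and 6 other members (Ifitm3, Irf1, Cxcl9, Cxcl10, F830016B08Rik and Ifi207). The lists hold genes by reputation, and many of these genes answer to more than one interferon.

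Cells came from the lungs of WT mice of strain C57B6/J and of mice labelled Plaur KO, with 8 mice per genotype in the design and 1 library per genotype. All mice received lipopolysaccharide with ovalbumin as sensitisation (days 0 and 7) and then an ovalbumin aerosol (day 14), so neither library is from unchallenged lung. The cells were sorted as CD45.2-negative, which takes out most blood-derived cells, and their messenger RNA was counted as unique molecular identifiers (UMIs) in droplets. Age, sex, the part of Plaur that was deleted and the number of mice pooled per library are not given in the labels. With 1 library per genotype no difference has a replicate check. No test was run, and every interval below is a 95% interval that covers counting error only.

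Interferons are secreted signals of infection and inflammation. Interferon alpha, beta and lambda act through the kinases Jak1 and Tyk2 on a complex that holds Stat2 and Irf9 and binds a DNA element called ISRE in front of antiviral genes. Interferon gamma, made mainly by T and NK cells, acts through Jak1 and Jak2, which leads to binding at an element called GAS and switches on Irf1. Guanylate-binding proteins (GBPs) and immunity-related GTPases (IRGs) then attack the membranes around intracellular microbes, and Cxcl9 and Cxcl10 draw in T cells.

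The letters of both elements can be seen in front of these genes. ISRE was searched as 2 copies of TTTC with 2 bases of any kind between them, or of GAAA on the other strand, and GAS as TTCNNNGAA, which reads the same on both strands. Each promoter ran from 250 bases before to 50 bases after the RefSeq start (GRCm38.p6), and 29 of the 36 genes had one in the RefSeq table. A gene counted if any of its promoters matched. ISRE letters were found for 9 of 17 type I genes and 7 of 7 GBP/IRG genes, against 3.99% of 27025 genes with a promoter. GAS letters were found for 4 of 17 and 4 of 7, against 9.55% of all these genes. Both were found for 2 of 17 and 4 of 7, against 0.614%. A match is a string of letters and not a measured binding site. The windows of 60 bases below are shown on the strand of the gene with the matched letters of both elements in capitals where they lie whole in the window, overlapping matches run together. They lie upstream of the annotated gene and outside any gene in GENCODE M21. Isg15, Ifit1 and Rsad2 stand for the type I list, Gbp7 and Igtp for the GBP/IRG list, and Irf1 for a promoter with GAS letters alone.

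Isg15 (ISRE, chr4:156200845-156200904, minus strand): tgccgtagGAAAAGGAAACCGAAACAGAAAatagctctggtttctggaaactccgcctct
Ifit1 (ISRE, chr19:34640765-34640824, plus strand): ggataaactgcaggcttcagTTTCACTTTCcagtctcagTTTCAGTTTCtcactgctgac
Rsad2 (ISRE, chr12:26456533-26456592, minus strand): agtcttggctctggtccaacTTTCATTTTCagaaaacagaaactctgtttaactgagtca
Gbp7 (ISRE, chr3:142530263-142530322, plus strand): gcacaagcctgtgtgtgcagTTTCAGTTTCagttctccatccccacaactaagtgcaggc
Gbp7 (GAS, chr3:142530229-142530288, plus strand): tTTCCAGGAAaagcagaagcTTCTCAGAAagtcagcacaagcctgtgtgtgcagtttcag
Igtp (GAS and ISRE, chr11:58199491-58199550, plus strand): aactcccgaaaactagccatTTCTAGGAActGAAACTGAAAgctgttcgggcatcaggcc
Irf1 (GAS, chr11:53769904-53769963, plus strand): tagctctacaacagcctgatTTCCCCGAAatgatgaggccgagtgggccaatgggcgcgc

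The WT library kept 10225 cells with a median of 4837 UMIs, and the KO-labelled library 8905 cells with a median of 5534 UMIs. Plaur messenger RNA was counted in both libraries, at 46.9 against 33.1 CPM (UMIs scaled to the total of the cells; WT first here and throughout), and in AT2-like cells it was higher in the library labelled KO, at 2.23 against 17.5 CPM. Every direction below therefore rests on the label. The libraries shared 30 barcodes, 27 of them among kept cells. Clusters were made without interferon genes, and the 8 classes for which both libraries had 100 or more cells were compared. Free RNA from AT2 cells was uneven: judged by Sftpc, the surfactant protein C gene, it equalled between 0.666% and 7.26% of the RNA of the 7 classes other than AT2-like in the WT library, and between 4.31% and 11.3% for KO-labelled cells.

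Of 5 interferon genes looked up (Ifng, Ifnb1, Ifnl2, Ifnl3 and Ifne), Ifng alone had UMIs. Ifng, the gene of interferon gamma, had 83 UMIs in the WT and 6 in the KO-labelled library over all kept cells. Of these, 79 and 6 lay in cluster 21, a mixture of T and NK genes with 75 and 20 cells that could not be given a single name. Its Ifng level was 428 CPM (339 to 534) in the WT and 81.8 CPM (30.03 to 178) in the KO-labelled library. Free AT2 RNA, judged by Sftpc, equalled 5.69% and 21.1% of the RNA of this cluster. The part of free RNA and of the mix of T and NK cells in the Ifng level was not tested. The sort was meant to remove leukocytes, so the number of such cells depends on the sort. Ifnb1, Ifnl2, Ifnl3 and Ifne had 0 UMIs in both libraries.

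Receptor and kinase genes differed little within AT2-like cells, the surfactant-making cells of the alveolus. The receptor genes were at 18.0 against 17.9 CPM for Ifnar1, 93.7 against 89.98 CPM for Ifnar2, 42.5 against 40.4 CPM for Ifngr1 and 66.1 against 69.7 CPM for Ifngr2, each with the WT first. Ifnlr1, the interferon lambda receptor, was at 9.71 against 8.37 CPM. It was at 21.8 against 22.8 CPM in ciliated-like cells and at 0.525 against 1.52 CPM (1 and 2 UMIs) in general capillary-like cells. In mesothelial-like cells it was at 7.94 against 6.05 CPM, so its UMIs were not confined to airway and alveolar epithelium. Jak1, Jak2 and Tyk2 in AT2-like cells had log2 ratios (KO-labelled over WT) of -0.10, -0.11 and -0.12. The median gene of this class stood at -0.10. Socs1, which blocks the kinases, was at 14.3 against 10.0 CPM, a log2 ratio of -0.51. In adventitial fibroblast-like cells Socs1 was at 147 against 79.2 CPM (-0.90), and in mesothelial-like cells at 25.7 against 13.4 CPM (-0.93). In the other compared classes its interval included 0: the ratio was -0.28 in airway secretory-like, -0.13 in ciliated-like, -0.06 in general capillary-like and 0.22 in aerocyte-like cells, and venous-like cells had 8 UMIs in each library.

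In summed CPM both lists were highest in the general capillary-like endothelium and lowest in AT2-like and airway secretory-like epithelium, in both libraries. Scgb1a1, an airway secretory gene, alone made up 457730 and 500361 CPM of airway secretory-like RNA. Sftpc made up 154372 and 166236 CPM of AT2-like RNA. Such genes lower the CPM of all others in their class, and their part in the order was not tested. The summed type I list stood at 2579 CPM in general capillary-like, 2308 CPM in aerocyte-like, 1576 CPM in venous-like, 1556 CPM in mesothelial-like, 1389 CPM in adventitial fibroblast-like, 1344 CPM in ciliated-like, 559 CPM in AT2-like and 415 CPM in airway secretory-like cells of the WT library. The order was the same in the KO-labelled library. Neighbours whose intervals overlapped were venous-like and mesothelial-like cells (WT alone) and fibroblast-like and ciliated-like cells (both libraries). The summed GBP/IRG list had another order in the WT library: 3767 CPM in general capillary-like, 2989 CPM in adventitial fibroblast-like, 2783 CPM in mesothelial-like, 2221 CPM in venous-like, 1591 CPM in aerocyte-like, 1156 CPM in ciliated-like, 611 CPM in airway secretory-like and 512 CPM in AT2-like cells. In the KO-labelled library mesothelial-like cells (2533 CPM) stood above fibroblast-like cells (2210 CPM), and AT2-like (423 CPM) above airway secretory-like cells (375 CPM). Fibroblast-like and mesothelial-like cells ranked above aerocytes, the capillary cells of gas exchange, on this list and below them on the type I list. By single gene, 12 of 22 type I genes and 4 of 8 GBP/IRG genes were highest in general capillary-like cells of the WT library, and 15 and 7 in the KO-labelled library. The share of all genes that were highest in this class is not given here, so these counts cannot be read as particular to interferon genes.

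**Figure D1:**
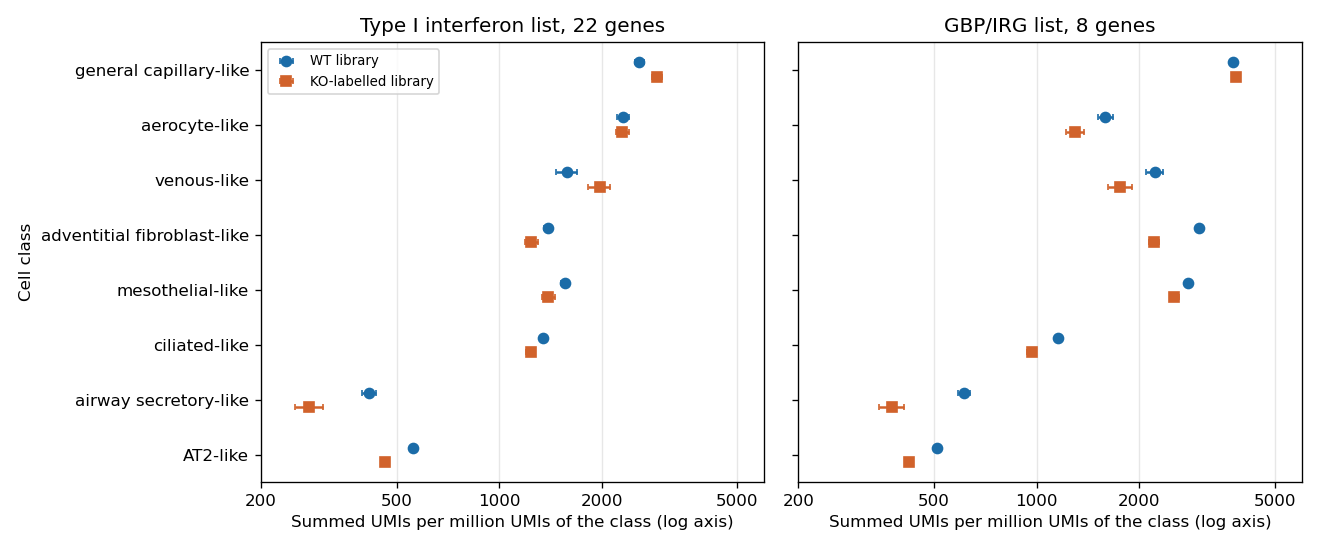
Summed CPM of the type I list (left) and the GBP/IRG list (right) in the 8 compared cell classes, on a log axis, with exact Poisson 95% intervals; circles are the WT and squares the KO-labelled library. General capillary-like cells were highest on both lists, and general capillary-like and venous-like cells alone had the KO-labelled library above the WT on the type I list beyond counting error.

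The GBP/IRG share of both lists' UMIs differed between classes and, within AT2-like cells, between clusters. The GBP/IRG list held 47.8% of the UMIs in WT and 47.7% in KO-labelled AT2-like cells. Inside that class the share ran from 15.7% in cluster 5 to 66.8% in cluster 8 of the WT, and in cluster 14 it was 26.4% against 39.0%. It held 64.1% and 64.5% in mesothelial-like and 68.3% and 64.0% in adventitial fibroblast-like cells, with 62.3% and 51.6% in cluster 10 of the latter. In aerocyte-like cells it held 40.8% and 36.1%. Among the 8 whole classes the widest gap between libraries was in venous-like cells, the endothelium of larger veins, with 58.5% (56.3 to 60.6) in the WT and 47.1% (44.4 to 49.8) in the KO-labelled library. UMIs here are counts of transcripts and are not divided by gene length.

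Between the libraries, the GBP/IRG list was lower in the KO-labelled library in 7 of 8 classes and the type I list in 6 of 8, 1 of which (aerocyte-like) was within counting error. The GBP/IRG log2 ratio was -0.70 in airway secretory-like, -0.44 in adventitial fibroblast-like, -0.34 in venous-like, -0.30 in aerocyte-like, -0.27 in AT2-like, -0.26 in ciliated-like and -0.14 in mesothelial-like cells, and 0.03 (-0.02 to 0.08) in general capillary-like cells. The type I log2 ratio was -0.58 in airway secretory-like, -0.27 in AT2-like, -0.16 in fibroblast-like and in mesothelial-like, -0.12 in ciliated-like, -0.01 in aerocyte-like, 0.17 in general capillary-like and 0.32 in venous-like cells. Median-of-ratios factors, which set the median gene to 0, moved the ratios up by 0.22 in airway secretory-like and 0.12 in AT2-like cells. They moved them up by 0.075 in mesothelial-like, 0.052 in ciliated-like, 0.026 in aerocyte-like, 0.019 in venous-like and 0.0048 in general capillary-like cells. In fibroblast-like cells the move was -0.012. Part of several lower ratios was thus shared with the median gene. The airway secretory-like value of the GBP/IRG list alone was past 1.5-fold, and it was -0.51 with TMM factors and -0.49 with median-of-ratios factors, short of that size. In aerocyte-like cells the GBP/IRG ratio was 0.03 as a mean over cells and -0.87 under a stricter cell filter (a minimum of 1000 genes, mitochondrial UMIs up to 10%).

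In AT2-like cells (3802 WT and 5796 KO-labelled cells) 12 of 33 measured members were at least 1.5-fold lower in the KO-labelled library and 0 were higher. Over all 12310 genes with at least 50 UMIs in this class, 5.27% were lower and 1.27% higher by that size. The 12 were 10 of 21 measured type I genes (Rsad2, Ifit3, Oasl1, Ifi44, Oas1a, Ifit2, Oasl2, Irf7, Ifit1 and Rtp4) with Cxcl10 and Ifitm3. None of the 8 GBP/IRG genes was among them. The median log2 ratio was -0.48 for the type I list and -0.27 for the GBP/IRG list, beside -0.10 for all genes of the class. Scaling by TMM factors moved every ratio of this class up by 0.12, to -0.15 for the type I and -0.16 for the GBP/IRG list, and left 11 members lower. With cells thinned to 1000 UMIs, 24 members were measured and 4 were lower.

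**Figure D2:**
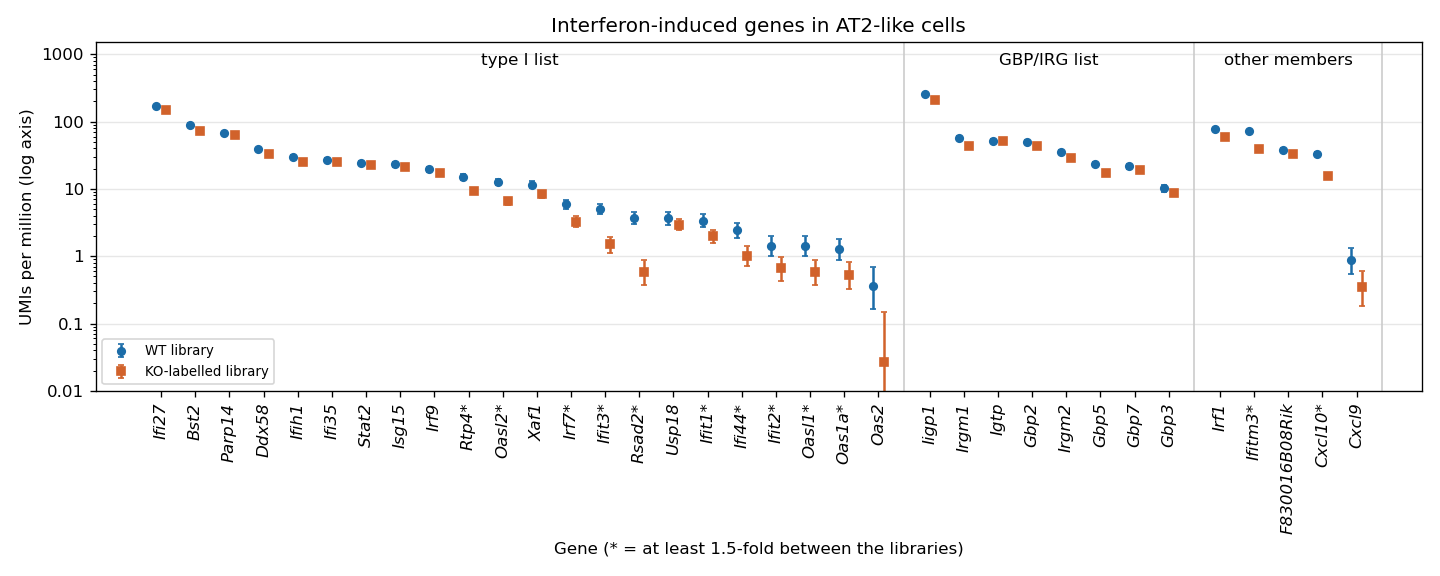
Level of each interferon-induced gene with a UMI in both libraries in AT2-like cells, in CPM on a log axis with exact Poisson 95% intervals, circles for the WT and squares for the KO-labelled library. The 12 starred genes were at least 1.5-fold lower in the KO-labelled library and most of the starred type I genes lay under 10 CPM, while no GBP/IRG gene was starred.

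Of the 10 lower type I genes, 8 were under 10 CPM in both libraries. Rsad2, which makes the antiviral nucleotide analogue of viperin (chromosome 12, 26442746 to 26456452), had 94 UMIs in WT and 22 in KO-labelled AT2-like cells, or 3.74 against 0.588 CPM, a log2 ratio of -2.67 (-3.41 to -1.99). A single WT cell held 52 of those 94 UMIs. Without the 5 highest cells of each library the Rsad2 ratio was -1.84. Ifit3, a binder of foreign RNA in the Ifit cluster of chromosome 19 (34583531 to 34588731), had 127 and 56 UMIs, or 5.06 against 1.498 CPM (-1.76, -2.24 to -1.29). Here too 1 WT cell held 44 UMIs, and the ratio was -1.22 without the 5 highest cells. Counting intervals treat UMIs of 1 cell as independent and are too narrow for such genes. Leaving out the 5 highest cells of each library, gene by gene, left all 12 of these genes at least 1.5-fold lower. For scarce genes this cannot decide robustness, because it takes a larger share from the library with fewer UMIs. For Ifi44 it took 10 of 62 WT and 10 of 38 KO-labelled UMIs and lowered the ratio to -1.47. Rsad2 kept 24 and 10 UMIs, Ifit2 16 and 9, Oas1a 23 and 14 and Oasl1 28 and 14. These fell below the minimum over both libraries for a measured gene.

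For Ifi44, Oasl1 and Oas1a no single cell held more than 3 UMIs, though few cells had any. Ifi44 had a UMI in 56 WT and 32 KO-labelled cells, at 2.47 against 1.02 CPM (-1.28). Oasl1, an oligoadenylate synthetase-like protein that restrains Irf7, was at 1.43 against 0.588 CPM (-1.28), and Oas1a, which makes the activator of RNase L, at 1.27 against 0.535 CPM (-1.25). Ifitm3, a membrane protein that stops viral entry, was seen in 24.6% of WT and 13.9% of KO-labelled AT2-like cells, at 71.4 against 39.1 CPM (-0.87), and was below 0 in all 7 AT2-like clusters. Cxcl10 was at 33.4 against 15.3 CPM (-1.12, -1.28 to -0.97) and was below 0 in 5 of the 6 clusters with at least 20 UMIs. A single WT cell held 97 of its 839 WT UMIs, so this interval is too narrow as well. Without the 5 highest cells of each library the Cxcl10 ratio was -1.11. RNA of the other classes, judged by their markers, could make up 20.7% of the Cxcl10 level in the WT and 21.9% in the KO-labelled library, 15.6% and 16.1% of Ifitm3, and 3.38% and 4.95% of Rsad2.

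The abundant type I genes of AT2-like cells differed less. Ifi27, a mitochondrial protein, was at 171 against 147 CPM (-0.22). Bst2, or tetherin, which holds virus particles at the cell surface, was at 90.4 against 73.5 CPM (-0.30). Parp14 was at 67.5 against 62.5 CPM (-0.11) and Ddx58, the RNA sensor RIG-I, at 38.5 against 32.5 CPM (-0.25). Isg15, the ubiquitin-like modifier, was at 23.2 against 20.9 CPM (-0.15, -0.30 to 0.01).

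All 8 GBP/IRG genes of AT2-like cells had ratios below 0, from -0.45 to -0.03, and 7 of 8 lay below the median gene. Iigp1, an IRG that coats parasite vacuoles, was at 261 against 211 CPM (-0.30, -0.35 to -0.26). Irgm1, a regulator of the other IRGs, was at 57.7 against 43.6 CPM (-0.40), Gbp2 at 49.7 against 43.9 CPM (-0.18) and Igtp at 52.1 against 51.2 CPM (-0.03). Igtp and Irgm2 overlap on the same strand of chromosome 11, so the split of reads between them is uncertain. Gbp5, which assists the inflammasome, was at 23.5 against 17.2 CPM (-0.45).

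As summed lists, GBP/IRG UMIs were concentrated in few AT2-like cells and type I UMIs were spread over more. By single gene the order was mixed. Before thinning, Ifi27 was seen in 57.9%, Bst2 in 34.8% and Parp14 in 27.1% of WT cells. Irgm1 was seen in 18.0% and Iigp1 in 17.5%, but the type I genes Ifit3 in 1.34% and Rsad2 in 0.736%. With each cell thinned to 2000 UMIs, 78.4% of 3772 WT and 81.8% of 5750 KO-labelled cells had no GBP/IRG UMI. Cells with 6 or more numbered 166 in the WT (4.401%, 3.77 to 5.10) and 225 in the KO-labelled library (3.91%, 3.43 to 4.45), and held 69.2% and 68.9% of the list's UMIs. The most loaded 5% of cells held 72.6% and 75.7% of GBP/IRG UMIs but 27.3% and 26.8% of type I UMIs. The variance of UMIs per cell was 12.4 and 12.2 times the mean for the GBP/IRG list and 2.42 and 1.93 times for the type I list. At the edge of the bin, 24 WT and 45 KO-labelled cells had 5 UMIs and 20 and 31 had 6.

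The cells with many GBP/IRG UMIs were rich in type I genes as well. From cells with 0 to cells with 6 or more GBP/IRG UMIs, the type I list went from 423 to 2136 CPM (WT) and from 356 to 1629 CPM (KO-labelled). Cxcl10 went from 8.45 to 449 CPM (WT) and from 3.94 to 242 CPM (KO-labelled). Ciita, the switch of MHC class II genes, went from 20.3 to 199 and from 19.6 to 216 CPM, and F830016B08Rik, an uncharacterised gene of the IRG type, from 2.37 to 639 and from 1.70 to 609 CPM. Sftpc was at 156394 and 132262 CPM in the lowest and highest bin of the WT and at 166268 and 145269 CPM in those of the KO-labelled library, so the cells carried AT2 RNA. Over the whole class the intervals of the share of such cells overlapped between the libraries, and the type I list and Cxcl10 inside them were lower in the KO-labelled library.

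**Figure D3:**
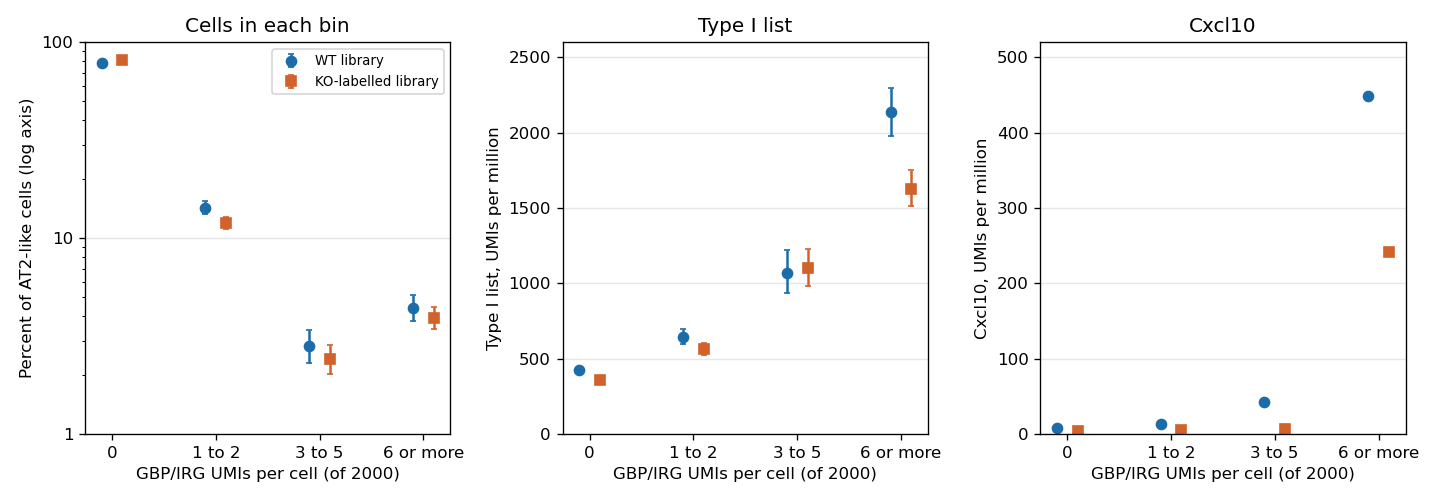
AT2-like cells thinned to 2000 UMIs and binned by GBP/IRG UMIs per cell: percent of cells on a log axis (left), type I list (middle) and Cxcl10 (right) in CPM, with exact 95% intervals in the left and middle panels; circles are the WT and squares the KO-labelled library. In the highest bin the type I list reached 2136 CPM in the WT and 1629 CPM in the KO-labelled library.

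Most of these cells, 105 of 166 in the WT and 121 of 225 in the KO-labelled library, belonged to 1 of the 7 AT2-like clusters. Cluster 8, led by the neutrophil chemokine genes Cxcl5 and Cxcl3, had 6 or more GBP/IRG UMIs in 27.1% of WT cells (22.8 to 31.9) and 19.1% of KO-labelled cells (16.1 to 22.3), intervals that did not overlap. Cluster 14 went the other way, at 0.735% (0.0186 to 4.03) and 4.43% (2.05 to 8.25), with overlapping intervals. Clusters 0 and 5 were at 0.315% or less in both libraries. The summed GBP/IRG list of cluster 8 was at 2450 against 1698 CPM (-0.53) and the type I list at 1218 against 826 CPM (-0.56). In clusters 0 and 5 the GBP/IRG list was at 68.7 against 48.5 CPM and 75.8 against 51.4 CPM, and the type I list at 353 against 274 CPM and 408 against 324 CPM. Among AT2-like clusters the GBP/IRG list was thus more uneven than the type I list. In cluster 8 Cxcl10 was at 215 against 65.6 CPM (-1.72), and Rsad2 had 75 and 5 UMIs, or 23 and 3 without the highest cell of each library. The GBP/IRG ratio lay between -0.56 and -0.32 in 6 clusters. In cluster 14, led by Sprr1a, Ndnf and the AT1 gene Ager, it was 280 against 443 CPM (0.66, 0.45 to 0.88), with Iigp1 at 97 and 228, Gbp2 at 29 and 88 and Igtp at 35 and 85 UMIs. Counting intervals are too narrow for this list, whose UMIs lay together in few cells. In cluster 14, 1 of 136 WT and 9 of 203 KO-labelled cells had 6 or more GBP/IRG UMIs. The type I ratio was below 0 in all 7 clusters, within counting error in cluster 11.

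**Figure D4:**
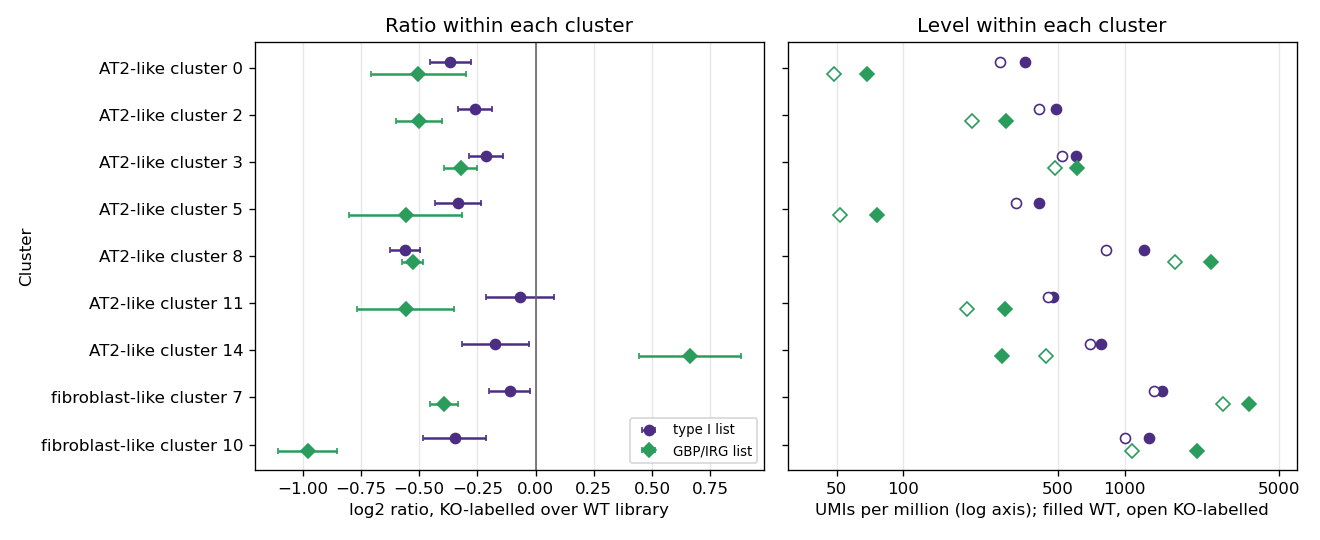
Log2 ratio with its 95% counting interval (left) and level on a log axis (right, filled for WT and open for KO-labelled) of the type I list (circles) and the GBP/IRG list (diamonds) in the 7 AT2-like and 2 adventitial fibroblast-like clusters. Cluster 14 had a GBP/IRG ratio of 0.66 and the 6 other AT2-like clusters were between -0.56 and -0.32.

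In general capillary-like cells, the stem-like capillary endothelium, 3 of 33 measured members were at least 1.5-fold higher (Oas2, Irf7 and Ifit1) and 1 was lower (Rsad2). Of all genes of this class, 4.45% were higher and 5.2% lower, so neither count stood far from the background. Oas2 had 30 and 48 UMIs (15.8 against 36.5 CPM, 1.21) and Irf7, the master regulator of interferon alpha genes, 33 and 43 UMIs (17.3 against 32.7 CPM, 0.92). Ifit1 was at 62.5 against 101 CPM (0.70, 0.33 to 1.06) and Rsad2 at 44.1 against 23.6 CPM (-0.90). Bst2 was at 700 against 825 CPM (0.24) and Gbp2 at 538 against 612 CPM (0.19), while Gbp5 was at 530 against 412 CPM (-0.36). Iigp1 was at 1326 against 1381 CPM (0.06) and Parp14 at 413 against 419 CPM (0.02), both within counting error. Ifi27 was at 159 against 177 CPM (0.16) and Gbp7 at 522 against 597 CPM (0.19). Isg15 was at 136 against 177 CPM (0.38, 0.12 to 0.64). Ifitm3 was at 2463 against 3163 CPM (0.36). Cxcl10 was at 1059 against 1430 CPM (0.43) and Irf1 at 550 against 419 CPM (-0.39). The stricter cell filter left 486 and 332 cells, in which the type I ratio was -0.04 and the GBP/IRG ratio -0.17.

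In venous-like cells (250 and 134) the lists went opposite ways. The type I list was at 1576 against 1970 CPM (0.32, 0.18 to 0.47) and the GBP/IRG list at 2221 against 1756 CPM (-0.34, -0.48 to -0.20). Of 23 measured members 3 were higher (Rtp4, Ifit1 and Ifi27) and 2 lower (Irgm1 and Gbp3), with 5.51% and 12.1% of all genes. Rtp4, an interferon-induced chaperone of receptors, had 28 and 36 UMIs (0.93, 0.18 to 1.69). Ifi27 had 70 and 75 UMIs (0.67, 0.18 to 1.16) and Ifit1 25 and 27 (0.68, -0.16 to 1.52), the latter within counting error. Irgm1 had 64 and 28 UMIs (-0.63, -1.32 to 0.04) and Gbp3 65 and 29 (-0.60, -1.28 to 0.05), both within counting error. Bst2 was at 440 against 572 CPM (0.38), Parp14 at 231 against 205 CPM (-0.17), Isg15 at 80.6 against 111 CPM (0.46) and Iigp1 at 759 against 583 CPM (-0.38). Scgb1a1, an airway secretory gene that veins should lack, was at 1544 against 26876 CPM in this class, and its part in these values was not tested. In aerocyte-like cells 1 of 27 measured members was higher (Rtp4, 112 against 173 CPM, 0.63) and 2 were lower (Gbp3, 53.3 against 34.8 CPM, and Gbp5, 194 against 128 CPM), with 4.02% and 5.09% of all genes. Bst2 was at 823 against 807 CPM (-0.03), Parp14 at 310 against 269 CPM (-0.20), Ifi35 at 180.02 against 218 CPM (0.27) and Iigp1 at 382 against 358 CPM (-0.09). Irf1 was at 707 against 493 CPM (-0.52, -0.70 to -0.34), and Cxcl10 at 2037 against 1915 CPM (-0.09).

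Adventitial fibroblast-like cells (1228 and 450) lay mostly in cluster 7 (765 and 330), which had 1 adventitial marker among its top 10 genes. Cluster 10 (463 and 120) had 5, so the class name rests more on cluster 10. Of 32 measured members of the class 9 were at least 1.5-fold lower and 0 higher, against 5.88% and 4.48% of all genes. They were 4 type I genes (Ifit1, Ifi44, Irf7 and Ifih1), 3 GBP/IRG genes (Irgm2, Irgm1 and Gbp5), Irf1 and Ifi207. Irf1, the transcription factor at the head of the interferon gamma response, was at 223 against 121 CPM (-0.89, -1.12 to -0.66). Irgm2 was at 127 against 79.9 CPM (-0.67) and Gbp5 at 293 against 187 CPM (-0.65). Iigp1 was at 1492 against 1060 CPM (-0.49), but Gbp2 at 474 against 447 CPM (-0.08). Irgm1 was at 186 against 118 CPM (-0.66), and all 8 GBP/IRG ratios were below 0. The scarcer type I genes had wide intervals, such as Ifi44 with 66 and 13 UMIs (-0.77, -1.76 to 0.10), Ifit1 with 255 and 50 (-0.78) and Irf7 with 152 and 31 (-0.72). The most counted type I genes differed less: Ifi27 was at 301 against 267 CPM (-0.17), Bst2 at 231 against 227 CPM (-0.02), Isg15 at 132 against 115 CPM (-0.20) and Parp14 at 123 against 97.5 CPM (-0.34). Ifi207, a DNA-sensing family member on chromosome 1, reached 50 UMIs in this class alone, with 455 and 98 UMIs (96.4 against 61.6 CPM, -0.65). Rsad2 had 29 and 0 UMIs here, too few to count as measured. With doublets kept the class held only 522 and 120 cells, so its GBP/IRG ratio of -0.93 covers a much smaller set of cells. In the 1228 and 450 cells the ratio was -0.05 with Irf1, Cxcl9, Cxcl10 and F830016B08Rik added to the list.

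The 2 clusters of that class differed on the T-cell chemokines. Cluster 7, led by Mgp, Saa3 and Mfap4, had Cxcl9 at 558 against 862 CPM (0.63, 0.51 to 0.75) and Cxcl10 at 4295 against 4859 CPM (0.18). Cluster 10, led by Dcn, Col1a2 and Ccl11, had Cxcl9 at 184 against 52.9 CPM (-1.80, -2.41 to -1.25) and Cxcl10 at 1069 against 278 CPM (-1.94, -2.19 to -1.70). Cluster 10 held 463 WT and 120 KO-labelled cells. The GBP/IRG list was lower in both, at -0.39 in cluster 7 and -0.98 in cluster 10. Pooled, the class had Cxcl9 at 398 against 593 CPM (0.58) and Cxcl10 at 2909 against 3334 CPM (0.20), values that followed the larger cluster 7.

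In mesothelial-like cells, the lining of the lung surface, 6 of 32 measured members were lower (Rsad2, Oasl1, Irf1, Cxcl10, Ifit3 and Ifih1) and 0 higher, against 12.9% and 4.68% of all genes. The class joined cluster 6 (894 and 260 cells) and cluster 18 (131 and 17 cells). Cluster 18 was led by Dcn and had 4 adventitial fibroblast markers among its 50 leading genes. The part of this mix in the values was not tested. Irf1 was at 312 against 162 CPM (-0.95, -1.15 to -0.75) and Cxcl10 at 1291 against 743 CPM (-0.80, -0.89 to -0.70). Cxcl9, a neighbour of Cxcl10 on chromosome 5, was at 64.3 against 92.1 CPM (0.52), the other way. Rsad2 had 90 and 7 UMIs (-1.96, -3.32 to -0.86), Oasl1 60 and 8 (-1.18) and Ifit3 196 and 35 (-0.76). Ifih1, the RNA sensor MDA5, was at 104 against 62.5 CPM (-0.73). The most counted genes of the 2 lists were nearer to equal than Cxcl10 and Irf1. Gbp2 was at 800 against 763 CPM (-0.07), Iigp1 at 742 against 624 CPM (-0.25) and Gbp5 at 355 against 322 CPM (-0.14). Ifi27 was at 395 against 369 CPM (-0.10), Oasl2 at 174 against 141 CPM (-0.30) and Bst2 at 169 against 141 CPM (-0.26). Lower Irf1 and Cxcl10 stood beside a GBP/IRG ratio of -0.14. With 12.9% of all genes lower, the 6 of 32 was not far from the background.

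In the airway, 8 of 33 measured members of ciliated-like cells were lower and 0 higher, against 4.81% and 2.7% of all genes: Rsad2, Oas2, Oasl1, Ifit1, Oas1a, Ifih1, Gbp5 and Ifi44. Rsad2 was at 25.4 against 9.89 CPM (-1.36, -1.93 to -0.83) and Ifit1 at 59.2 against 37.9 CPM (-0.64). Oasl1 was at 23.0 against 14.3 CPM (-0.69), Gbp5 at 34.8 against 22.8 CPM (-0.61) and Oas2 at 9.04 against 5.22 CPM (-0.79). Ifi27 was higher, at 138 against 162 CPM (0.23), and so was Cxcl10, at 24.7 against 35.4 CPM (0.52). Iigp1 was at 581 against 428 CPM (-0.44) and Igtp at 105 against 127 CPM (0.27). Ciliated-like cells had the highest Usp18 of the 8 classes, the protease that removes Isg15 and damps the receptor, at 118 against 126 CPM, and the highest Ifi35. In airway secretory-like cells (331 and 104) 13 of 25 measured members were lower and 1 higher (Ifit1), where 15.6% and 1.93% of all genes were. Cxcl10 was at 61.2 against 16.9 CPM (-1.85, -2.50 to -1.27) and Iigp1, the most counted GBP/IRG gene, at 299.9 against 142 CPM (-1.08). Gbp5 had 181 and 30 UMIs (-1.22), Gbp3 72 and 13 (-1.10), Rtp4 80 and 15 (-1.05) and Isg15 192 and 37 (-1.01). Gbp2 went the other way, at 68.2 against 76.8 CPM (0.17, -0.15 to 0.49). Ifit1 had 43 and 30 UMIs (0.85, 0.13 to 1.56).

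Across classes a few members had 1 direction. Rsad2 was at least 1.5-fold lower in all 4 compared classes where it was measured. Neutrophil-like cells were too few to be compared. Thinned to 1000 UMIs, 10.6% of 123 WT (5.75 to 17.4) and 26.1% of 23 KO-labelled cells (10.2 to 48.4) of that class had a Rsad2 UMI. Of 22 members measured in every class, 5 (Irf1, Ifih1, Gbp3, Gbp5 and Irgm1) had ratios below 0 in 8 of 8 classes, as did 8.54% of all 2705 genes measured in each. With TMM factors there were 4, without Ifih1, against 4.7% of genes. With class totals the Irf1 ratio lay between -0.95 and -0.29 and the Gbp5 ratio between -1.22 and -0.14. Ifitm3 had ratios above 0 in 6 of 8 classes, and AT2-like cells were its lowest class. Ifit1 was past 1.5-fold lower in 3 classes and higher in 3.

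**Figure D5:**
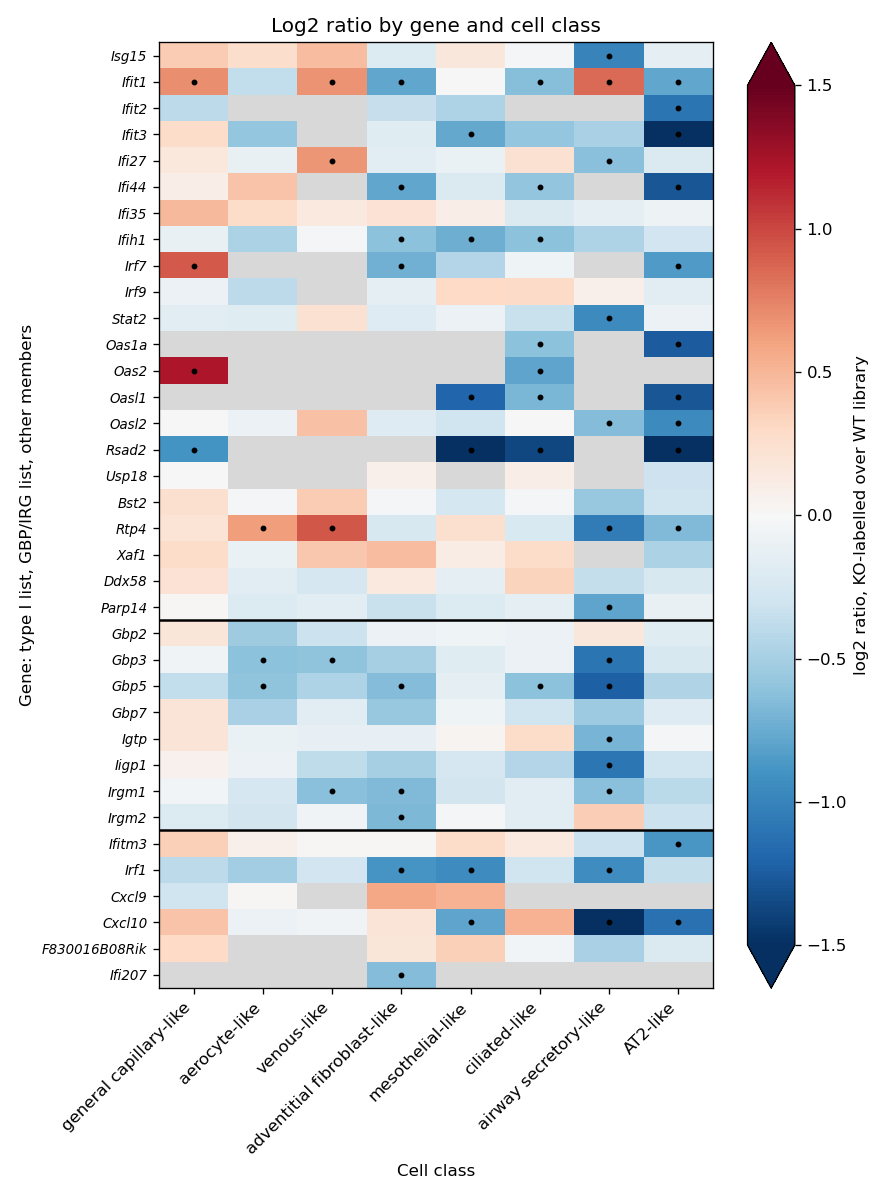
Log2 ratio, KO-labelled over WT library, of 36 interferon-induced genes (rows; type I list, GBP/IRG list and other members from top to bottom) in the 8 compared cell classes (columns); blue is lower and red higher in the KO-labelled library, grey marks genes under 50 UMIs and a dot marks at least 1.5-fold. Rsad2 is blue in each of its 4 measured classes, and Irf1 in all 8.

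Wider lists of interferon genes were counted in AT2-like cells, where 5.27% of all genes were lower and 1.27% higher. Of 34 measured further type I genes 9 were at least 1.5-fold lower and 0 higher, a smaller share than the 10 of 21 above, among them Ifit3b (-2.40), Ifitm1 (-1.66), Ifi27l2a (42.0 against 17.5 CPM, -1.26) and Sp100 (-1.01). The others were Dhx58, Epsti1, Lgals3bp, Trim30a and Trim30d. With TMM factors 6 were lower, without Trim30a, Trim30d and Lgals3bp. Ifit3b is a near copy of Ifit3, so reads may be split between them. Unlike the GBP/IRG list, the 10 further GBP/IRG genes included 2 that were lower, Gm4951 (56.7 against 30.9 CPM, -0.87) and Gbp4 (20.2 against 11.8 CPM, -0.78). Of 22 further interferon gamma genes 5 were lower: Ccl5, Ccl2, Serping1, Cd274 and Ubd. For 3 of these 16 lower genes the RNA of other classes, judged by markers, equalled or passed the whole AT2-like level in both libraries: Ifitm1 (110.0% in the WT and 120.04% in the KO-labelled library), Serping1 (130% and 126%) and Ccl2 (146% and 302%). Fibroblast RNA, for one, equalled 0.139% of AT2-like RNA in the WT and 0.0596% in the KO-labelled library, and its part in these ratios was not tested. For the other 13 it came to at most 10.4% of the level. Cd274, the checkpoint ligand PD-L1, was at 8.32 against 4.33 CPM (-0.94). In general capillary-like cells (5.2% of all genes lower, 4.45% higher) the same lists had 1, 0 and 0 lower and 0, 1 and 2 higher genes of 28, 10 and 20 measured, the lower one being Uba7 (-0.76), which starts the Isg15 conjugation, and the higher ones Gbp10 (0.63), Ubd (1.22) and Ido1 (0.92). Of 12 Ifi200 genes 0 reached 50 UMIs in AT2-like cells, and their sum was at 1111 against 921 CPM in adventitial fibroblast-like cells (-0.27).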

How the data were processed

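The deposited files hold counts: whole UMIs per gene and barcode, which the authors made with Cell Ranger (7.0.0 and 7.1.0, build mm10, per the submitters' processing notes). Use of intronic reads is not given in the sources used here. Barcodes under 500 genes or over 15% mitochondrial UMIs were dropped. Scrublet (scanpy 1.11.5) took out 617 WT and 204 KO-labelled doublets. Clusters (2000 variable genes, 30 components, 15 neighbours, Leiden resolution 1, leidenalg 0.10.2) were made without 137 interferon genes and named from markers; a rule against leukocyte-led names was added after the clusters were seen. CPM is a gene's summed UMIs in a class of 1 library over that class's total. Intervals are exact Poisson for CPM, conditional binomial for ratios and Clopper-Pearson for shares. A gene needed 50 UMIs over both libraries to be measured. In each class members past 1.5-fold (the 6 farthest from 0 if more) and up to 4 most counted members of each list were named, and others are mentioned after their values were seen. edgeR 4.0.16 gave TMM factors. Only the ratio intervals and the 1.5-fold rule were tried on simulated data, drawn as independent counts at the depth of the AT2-like class. Clusters, free RNA and spread between cells were not simulated, so their effect on the intervals was not tested. Positions are from GENCODE M21 (GRCm38). The members and lists were chosen with earlier results of these data known.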

Additional observations from a re-analysis of the deposited data

Results flagged for a closer look

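Some values went opposite ways in groups of cells beyond counting error; none of these differences was tested, because each genotype has 1 library. The type I list was higher in the KO-labelled library in general capillary-like cells (log2 ratio 0.17) and venous-like cells (0.32) and lower in 5 other classes. The GBP/IRG list was higher in AT2-like cluster 14 (0.66) and lower in the 6 other AT2-like clusters. Counting error is too narrow a measure for this list, as few cells held most of its UMIs. In cluster 14, 1 of 136 WT and 9 of 203 KO-labelled cells had 6 or more. Between the adventitial fibroblast-like clusters, Cxcl9 was at 0.63 in cluster 7 and -1.80 in cluster 10, Cxcl10 at 0.18 and -1.94, and F830016B08Rik at 0.29 and -0.59.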

How the results depend on the processing

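No paired analysis was possible because each genotype has 1 library. In AT2-like cells the type I and GBP/IRG ratios were below 0 under every alternative. They were -0.15 and -0.16 with TMM factors and -0.15 and -0.15 with median-of-ratios factors. The type I ratio was -0.48 as the median of members and -0.30 with cells thinned to 1000 UMIs. The GBP/IRG ratio was -0.32 with doublets kept, -0.31 with Irf1, Cxcl9, Cxcl10 and F830016B08Rik added, and -0.33 as the mean of the AT2-like clusters. Thinning to 1000 UMIs left 24 measured members, 4 of them past 1.5-fold. In adventitial fibroblast-like cells the type I ratio was -0.079 thinned, -0.085 as a mean over cells and -0.35 with doublets kept. The GBP/IRG ratio there was -0.36, -0.31 and -0.93 in the same order, -0.53 as the median of members, -0.38 without Iigp1 and -0.051 with the 4 genes added. With doublets kept this class held only 522 and 120 cells, so its values under that setting cover a much smaller set of cells. In general capillary-like cells the type I ratio turned to -0.039 with the stricter cell filter (1000 genes, 10% mitochondrial). The GBP/IRG ratio was -0.17 with that filter, -0.030 with the looser one, -0.027 thinned, -0.049 at resolution 0.5 and 0.085 with AT2 RNA taken off. In the 5 other compared classes 122 of 131 alternative values had the direction of the reported one. The 9 others were aerocyte-like: the GBP/IRG ratio turned to 0.027 as a mean over cells, and the type I ratio, within counting error of 0, ran from -0.24 to 0.11. The other GBP/IRG ranges were -0.78 to -0.35 (airway secretory-like), -0.33 to -0.096 (ciliated-like), -0.32 to -0.060 (mesothelial-like) and -0.48 to -0.035 (venous-like). The causes were not tested. The leaving out of Iigp1 or Bst2, the removal of AT2 RNA, the mean of clusters and the leaving out of the 5 highest cells were chosen after seeing the data.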
